A study of Mus musculus with 6 samples.

Results

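Heat shock proteins and their DnaJ cochaperones were compared between CD11c+ and CD11c- effector memory T cells of mouse blood. A gene was included when its symbol named a DnaJ protein of the A, B or C class, an Hsp70 (Hspa), a small heat shock protein (Hspb), an Hsp90, the Hsp110 protein Hsph1, the chaperonin proteins Hspd1 or Hspe1, or a heat shock factor (Hsf). The rule used names only, and it found 69 of the 17097 genes that had a probe set with a single gene symbol, through 150 probe sets. Where a gene had several probe sets, the brightest on average over all 6 arrays was read. Hspa1a, Hsp90ab1, Hspd1 and Hsf1 were not analysed here.

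The study set out to characterize circulating T cells that carry the integrin CD11c. All animals were female C57BL/6 mice of 6 to 8 weeks, without infection, given 3 mg of the progestin Depo-Provera under the skin 5 days before blood was taken, as the labels give it. The study's methods place the dose a day earlier. From each of 3 mice, labelled A, C and D, 300 cells that were CD3+ CD62L- CD44high were sorted as CD11c+ and 300 as CD11c-, so that the surface gate, not a genotype or a treatment, separated the fractions. RNA was amplified over 24 cycles and hybridized to 1 array per sample, and the values are log2 signals normalized by RMA. A probe set was called above background when the mean of a fraction exceeded 5.85, a level taken from genes of other tissues.

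Chaperones bind unfolded stretches of other proteins and keep them from aggregating. Hsp70 proteins do this in cycles of ATP hydrolysis that DnaJ proteins start and that Hsp110 proteins help to reset by nucleotide exchange, while Hsp90 acts later, on nearly folded clients such as kinases and receptors. When unfolded protein builds up in the cytosol, heat shock factors bind heat shock elements and switch on the inducible chaperones, and the endoplasmic reticulum (ER) has its own sensors and its own promoter element.

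Among the chaperones of the cytosol and the ER, Hsph1, Hspa5, Hsp90b1, Hsp90aa1 and Dnajb1 read higher in the CD11c+ fraction of each of the 3 mice, by 0.44 to 0.80 on the log2 scale. Smaller differences upward in each mouse were found as well, among them those of Dnajb9 (0.34) and Hspa8 (0.14). Other members read lower in each of the 3 mice, among them Dnajb2 (-0.85), Dnaja4 (-0.75), Dnajc7 (-0.39) and Dnajc10 (-0.21). The other probe sets of Dnajc10 gave -0.62 and 0.08, each with mice of both signs. In total, 16 members were higher in 3 of 3 mice (23.2%, against 12.6% of all genes) and 16 lower (23.2%, against 26.5%). None of the 69 genes passed an adjusted p of 0.05 in limma in either direction, the lowest value being 0.121 for Hsph1. Over all genes, 1.40% passed as higher and 0.222% as lower in CD11c+ cells. At an unadjusted p under 0.05, 7 members were higher (10.1% of them, against 7.38% of all genes) and 3 were lower (4.35%, against 7.44%). Both shares were near those of all genes or below them, so these counts by p-value single out no difference of the family as a whole. The share of members higher in 3 of 3 mice was above that of all genes, a difference that was not tested.

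Promoter sequences are shown first for the members whose windows hold the element of either stress pathway. RefSeq windows of GRCm38.p6, from 250 bases before to 50 after the annotated start, were found for 55 of the 69 members. They were searched on both strands for a heat shock element of 3 units (GAANNTTCNNGAA or TTCNNGAANNTTC, N being any base) and for the ER stress response element, CCAAT and CCACG with 9 bases between them. The capitals mark the matches, in the direction of transcription, with the bases from 30 before the match to the start.
Dnajb6, chr5:29735822-29735897, plus strand: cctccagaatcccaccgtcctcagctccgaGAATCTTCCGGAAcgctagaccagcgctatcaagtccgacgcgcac
Hspe1, chr1:55088029-55088147, plus strand: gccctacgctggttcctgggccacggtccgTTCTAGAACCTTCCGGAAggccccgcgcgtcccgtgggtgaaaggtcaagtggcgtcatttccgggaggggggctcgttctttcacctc
Hsph1, chr5:149636288-149636300, minus strand, site only, since it lies after the annotated start: TTCTGGAAAGTTC
Hspa5, chr2:34771995-34772089, plus strand: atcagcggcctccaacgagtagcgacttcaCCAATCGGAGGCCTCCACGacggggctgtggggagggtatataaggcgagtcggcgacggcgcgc
Dnajc3, chr14:118937797-118937931, plus strand: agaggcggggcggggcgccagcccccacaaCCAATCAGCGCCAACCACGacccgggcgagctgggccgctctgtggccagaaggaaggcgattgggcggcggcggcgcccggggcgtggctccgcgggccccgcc
Hsp90b1, chr10:86705445-86705686, minus strand: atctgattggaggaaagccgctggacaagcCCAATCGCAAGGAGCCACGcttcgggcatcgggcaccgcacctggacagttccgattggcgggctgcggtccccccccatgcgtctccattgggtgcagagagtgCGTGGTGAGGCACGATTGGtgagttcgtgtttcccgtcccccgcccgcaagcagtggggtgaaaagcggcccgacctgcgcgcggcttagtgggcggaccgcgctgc

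The heat shock element of 3 units lay in the windows of 3 members, Dnajb6, Hspe1 and Hsph1 (5.45% of the matched members), and in those of 0.662% of all 27025 genes with a window. In Hspe1 the run in capitals holds 2 overlapping matches. The looser element of 2 units (GAANNTTC or TTCNNGAA), which every 3-unit element contains, was held by 14 members (25.5%) and by 17.0% of all genes. The ER stress response element was held by Hspa5, Dnajc3 and Hsp90b1, the last with 1 match on each strand, and by 37 of all genes (0.137%). CCAAT alone, which is part of that element, lay in 41.8% of the matched members and in 41.1% of all genes, and TATAAA in 3 members against 15.7% of all genes. These matches describe the letters of the windows and not the binding of a factor.

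Hsp70 proteins were represented by 12 genes, 5 of them above background in both fractions. The leading one of these was Hspa5, which encodes BiP, the Hsp70 of the ER lumen. Its CD11c- arrays read 7.60, 7.56 and 7.50 in mice A, C and D, and its CD11c+ arrays 8.14, 8.12 and 8.44. Every CD11c+ value lay above every CD11c- value, and the log2 fold change was 0.68 ± 0.15 (SE, 3 mice), with an adjusted p of 0.165 in limma. The second probe set of Hspa5, also above background, gave 1.03 (adjusted p = 0.150), again with no overlap of the fractions.

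Hspa8, the constitutive cytosolic Hsp70, had a small difference at a high signal. In mice A, C and D it read 10.80, 10.56 and 10.76 in CD11c- cells and 10.90, 10.78 and 10.86 in CD11c+ cells. The log2 fold change was 0.14, with a 95% interval from -0.20 to 0.48, and the fractions overlapped although CD11c+ was the higher in 3 of 3 mice. Its other 3 probe sets gave 0.08, 0.05 and -0.38. Hspa9, the mitochondrial Hsp70, differed by -0.30 on the log2 scale (adjusted p = 0.490), downward in 3 of 3 mice, and its other 2 probe sets gave 0.36, with mice of both signs, and -0.39, lower in 3 of 3 mice at means under the background level. Hspa4, an Hsp110-type exchange factor, had -0.19 and Hspa14, an Hsp70 found at ribosomes, -0.15, and neither kept its sign in the 3 mice.

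The remaining 7 Hsp70 genes were above background in neither fraction, so that their differences are not read as folds. Hspa1b, a stress-inducible Hsp70 whose probe sets may also bind transcripts of its near-identical neighbour Hspa1a, read 3.74, 2.82 and 3.42 in the CD11c- cells of mice A, C and D. In CD11c+ cells it read 6.08, 2.73 and 2.97. The CD11c+ array of mouse A thus stood above the other 5, and the log2 difference of 0.60 became -0.27 without that mouse. The other 2 probe sets of Hspa1b lay between 2.44 and 2.95 on all 6 arrays, mouse A included. Hspa2, known from testis, read 4.60, 3.89 and 4.46 in CD11c- cells and 4.83, 5.95 and 5.65 in CD11c+ cells. The fractions did not overlap and its log2 difference of 1.16 was the highest of the 69 genes (adjusted p = 0.305), at levels where its mean in either fraction was under the background level. Differences were 0.31 for Hspa1l, 0.04 for Hspa12b, -0.09 for Hspa13, -0.18 for Hspa4l and -0.28 for Hspa12a.

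Hsph1, the Hsp110 that works with inducible Hsp70, came nearest to the threshold. It read 7.37, 7.05 and 7.54 in the CD11c- cells of mice A, C and D and 7.93, 7.98 and 8.44 in their CD11c+ cells. The fractions did not overlap, and the log2 fold change was 0.80 ± 0.15 (SE, 3 mice; adjusted p = 0.121), from its only probe set. Hspe1, the co-chaperonin of mitochondria whose window also holds the heat shock element, read 9.12, 9.18 and 8.90 in CD11c- cells and 8.94, 9.27 and 8.83 in CD11c+ cells. Its log2 fold change of -0.06 had a 95% interval from -0.41 to 0.30.

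Both Hsp90 genes among the members, Hsp90b1 and Hsp90aa1, read higher in CD11c+ cells of all 3 mice, with no overlap of the fractions. Hsp90ab1 was not analysed, so this does not cover every Hsp90. Hsp90b1, the Hsp90 of the ER known as Grp94, read 9.85, 9.93 and 10.07 in CD11c- cells and 10.52, 10.34 and 10.46 in CD11c+ cells. Its log2 fold change was 0.49 ± 0.14 (SE; adjusted p = 0.246), and its second probe set gave 0.47. Hsp90aa1, the inducible cytosolic Hsp90, read 7.72, 7.53 and 7.65 in CD11c- cells and 8.34, 7.92 and 7.95 in CD11c+ cells. Its log2 fold change was 0.44 ± 0.14 (SE; adjusted p = 0.299).

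**Figure D1:**
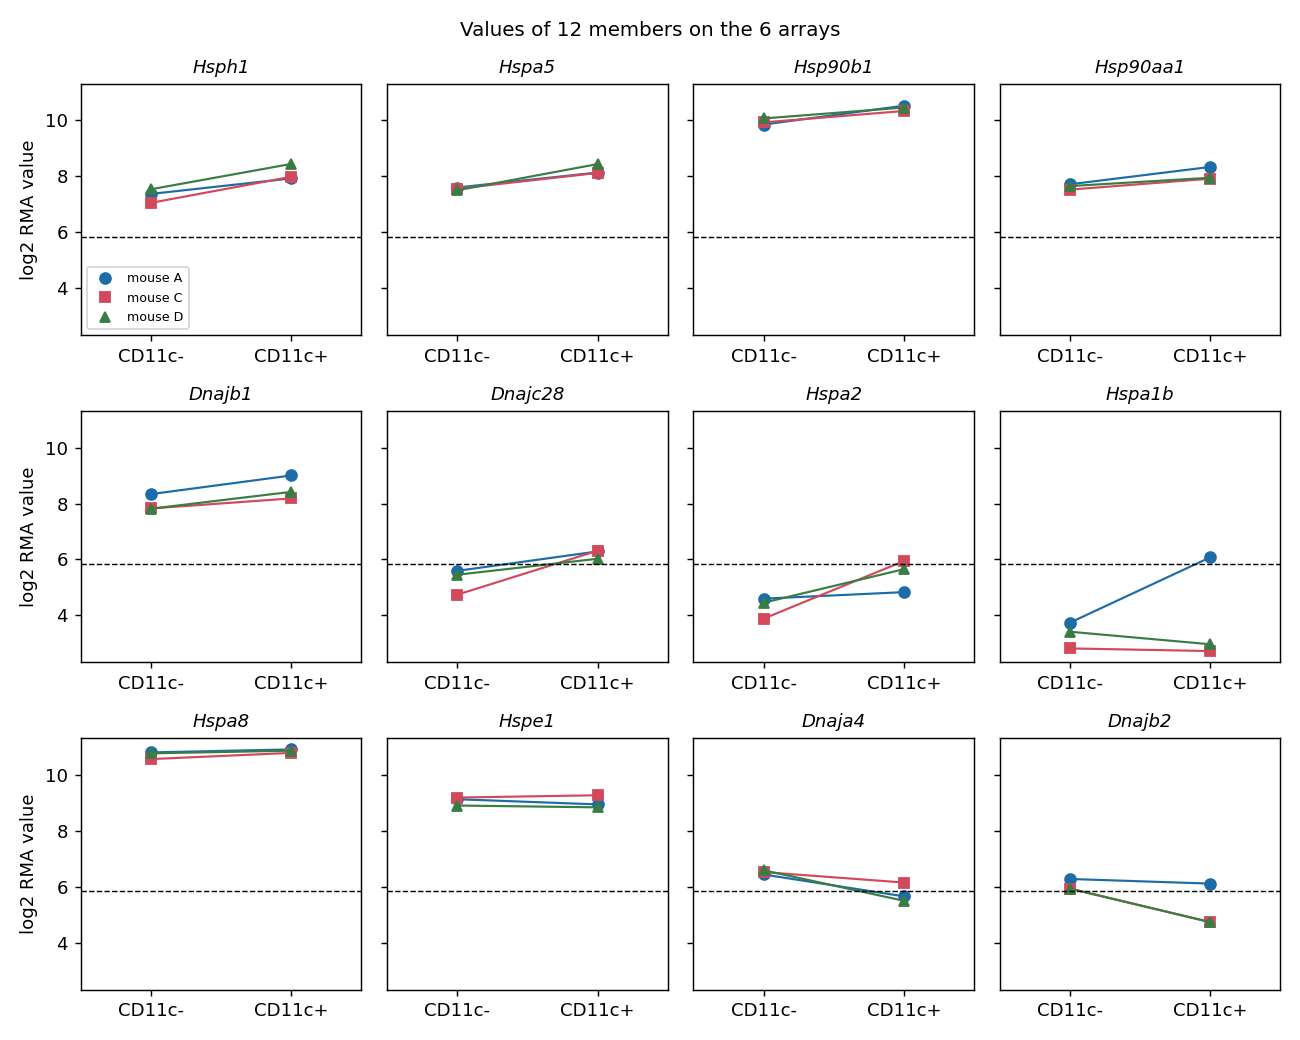
Log2 RMA values of 12 members on the 6 arrays, with the CD11c- and CD11c+ samples of each mouse joined by a line and the background level of 5.85 dashed. Lines for Hsph1, Hspa5, Hsp90b1, Hsp90aa1 and Dnajb1 slope up in all 3 mice, Hspa1b is high on 1 array only, and Hspa8 and Hspe1 are nearly flat.

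None of the 7 small heat shock proteins was above background in either fraction. They include Hspb1, which holds unfolded proteins without ATP and read 4.43 to 4.46 in CD11c- cells and 4.52 to 4.78 in CD11c+ cells. These ranges did not overlap, and the log2 difference was 0.17 (adjusted p = 0.676). The other probe sets of Hspb1 gave -0.12, 0.11 and -0.06, each with overlapping fractions. Differences of the 7 genes ran from -0.26 (Hspb8) to 0.17.

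DnaJ proteins of class A were represented by 4 genes, all above background in at least 1 fraction. Dnaja1, a cytosolic partner of Hsp70, differed by 0.30 on the log2 scale, upward in 2 of 3 mice (adjusted p = 0.687). Dnaja4, another cytosolic partner, read 6.43, 6.52 and 6.59 in CD11c- cells and 5.65, 6.15 and 5.49 in CD11c+ cells. The CD11c+ values lay below the others without overlap, with a log2 fold change of -0.75 ± 0.19 (SE; adjusted p = 0.200). Its CD11c+ mean was under the background level, which makes the size uncertain, and its other probe set, not above background, gave -0.05.

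Class B held 12 genes, 8 of them above background in at least 1 fraction. Dnajb1, the heat-inducible Hsp40 that pairs with Hsp70 in the cytosol, read 8.34, 7.82 and 7.81 in CD11c- cells and 9.002, 8.18 and 8.42 in CD11c+ cells. Mouse A was high in both fractions, so the groups overlapped, but within each mouse CD11c+ was the higher, and the log2 fold change was 0.54 ± 0.14 (SE; adjusted p = 0.209). Its second probe set gave 0.81 (adjusted p = 0.139).

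Dnajb6, which keeps aggregation-prone proteins soluble, differed by 0.51 on the log2 scale (adjusted p = 0.491), from fractions that did not overlap. Its other 3 probe sets gave 0.57, -0.15 and -0.50, and on the last of these the CD11c+ values lay wholly below the CD11c- values. Dnajb12, anchored in the ER membrane, had 0.44 and -0.55 from its 2 probe sets. For these genes the direction thus depended on which probe set was read.

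At the lower end, Dnajb2, which links Hsp70 clients to the ubiquitin system, read 6.27, 5.93 and 5.93 in CD11c- cells and 6.11, 4.73 and 4.73 in CD11c+ cells. Mice C and D gave the difference and mouse A hardly any (-0.17), and the log2 fold change of -0.85 ± 0.26 (SE; adjusted p = 0.284) was the lowest of the 69, its CD11c+ mean being under the background level. Dnajb13, known from sperm and cilia, read 6.57, 6.93 and 8.18 in CD11c- cells and 6.44, 6.21 and 6.80 in CD11c+ cells. It was lower in 3 of 3 mice with overlapping fractions, at a mean log2 difference of -0.74 (adjusted p = 0.363). Dnajb4, a heat-inducible relative of Dnajb1, was above background in neither fraction and had a log2 difference of 0.15.

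Class C, the most varied class, held 27 genes, 15 above background in at least 1 fraction, and the median of their log2 fold changes was -0.20. Dnajc28 read 5.59, 4.74 and 5.46 in CD11c- cells and 6.29, 6.31 and 6.03 in CD11c+ cells. The fractions did not overlap, and the log2 fold change was 0.95 ± 0.24 (SE; adjusted p = 0.215), its CD11c- mean being under the background level. Its other probe set, dimmer, gave 0.08 with different signs among the mice.

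Among the class C genes above background, the 4 lowest were Dnajc3, Dnajc7, Dnajc5 and Dnajc8, and Dnajc16, above background in neither fraction, had a log2 difference of -0.40 and was lower in 3 of 3 mice. Dnajc3, also called P58IPK, an ER cochaperone and an inhibitor of the eIF2alpha kinases, read 7.79, 8.44 and 8.51 in CD11c- cells and 7.81, 7.94 and 7.28 in CD11c+ cells. It was lower in mice C and D and level in mouse A, and its mean log2 difference was -0.57 (adjusted p = 0.491). Its other probe sets, above background in neither fraction, gave -0.38, -0.62, 0.32 and -0.03. Of the 3 members whose windows hold the ER stress response element, Hspa5 and Hsp90b1 had a log2 fold change above 0 and Dnajc3 one below 0. Dnajc7, which binds Hsp70 and Hsp90, had a log2 fold change of -0.39, Dnajc5, the cysteine string protein of secretory vesicles, -0.37, and Dnajc8, found with splicing factors, -0.31. Each of these 3 was lower in 3 of 3 mice, with adjusted p from 0.408 to 0.533. The other probe sets of Dnajc5 gave -0.08, -0.49, 0.07 and 0.35.

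Of the 3 heat shock factors measured, only Hsf4, known from the lens, was above background. It read 5.96, 5.94 and 6.66 in CD11c- cells and 6.36, 6.40 and 5.47 in CD11c+ cells, and its log2 fold change of -0.11 came from opposite signs, mouse D against mice A and C. Hsf2, which acts in development, and Hsf5, known from germ cells, had log2 differences of -0.30 and -0.02 under the background level.

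**Figure D2:**
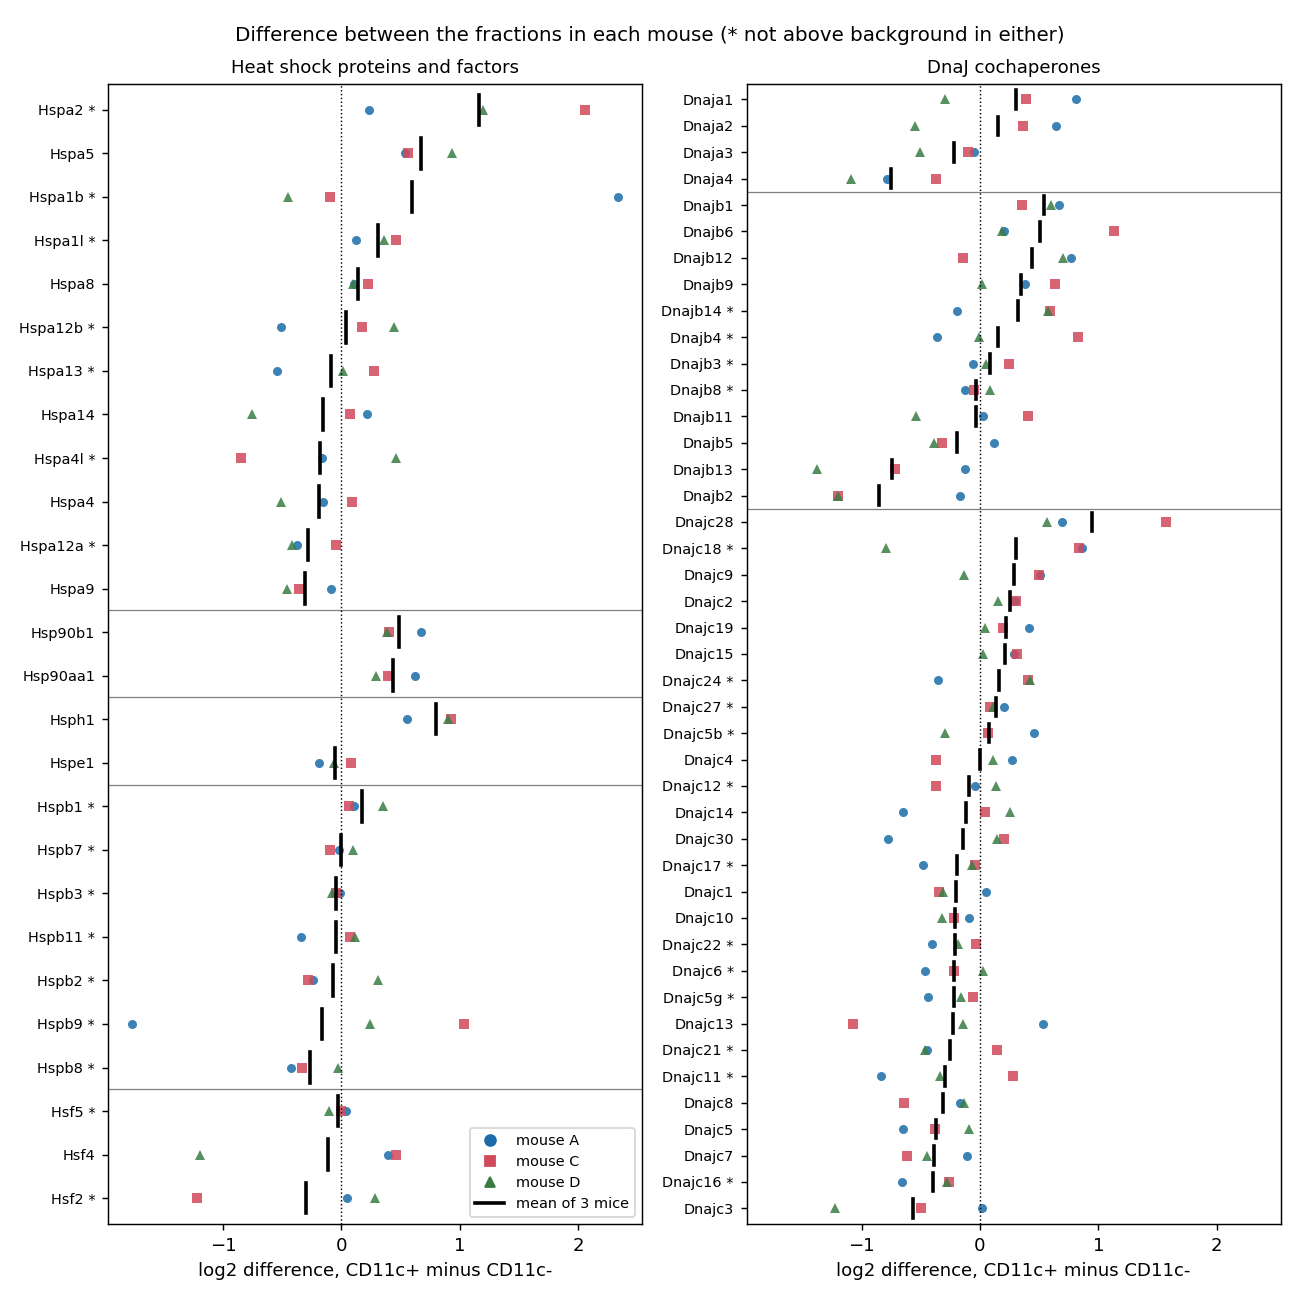
Log2 difference of CD11c+ minus CD11c- for the 69 members in each mouse (symbols) with the mean of the 3 mice (bars), grouped by family, asterisks marking genes above background in neither fraction. Most means lie within 0.5 of zero. CD11c+ was higher in 3 of 3 mice for 16 members (23.2%, against 12.6% of all genes) and lower for 16 (23.2%, against 26.5%). All others, Hspa1b, Hspb9, Hsf2 and Hsf4 among them, show mice of opposite sign.

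Over the 69 genes, 37 were above background in at least 1 fraction and 32 in neither. Differences of 58 genes lay within 0.5 of zero on the log2 scale, and the median was -0.05 against -0.09 over all genes. Log2 fold changes above 0 were found for 29 of the 69 members, and for 33.9% of all genes. Of the 37 members above background in at least 1 fraction, 45.9% were above 0, against 42.4% of all genes above background. The fractions did not overlap for 8 members with CD11c+ above (11.6%, against 7.48% of all genes) and for 3 with CD11c+ below (4.35%, against 12.5%). The 8 were Hsph1, Hspa5, Hsp90b1, Hsp90aa1, Dnajb6, Dnajc28, Hspa2 and Hspb1, and the 3 were Dnaja4, Dnajc22 and Hspa12a, of which Hspa2, Hspb1, Dnajc22 and Hspa12a were above background in neither fraction. CD11c+ was the higher in 3 of 3 mice for 16 members (23.2%, against 12.6% of all genes) and the lower in 3 of 3 for another 16 (23.2%, against 26.5%). Among genes above background in at least 1 fraction, 32.4% of the members and 21.2% of all genes were higher in 3 of 3 mice.

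Several probe sets were above background for 20 members, and in 14 of these all had 1 sign. Hspa5, Dnajb1, Hsp90b1 and Dnaja1 were among those with 1 sign above zero, and Dnajc8, Dnaja3 and Hspe1 among those below. The signs differed for Dnajb6, Dnajb12, Hspa8, Hspa9, Dnajc5 and Dnajc13.

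**Figure D3:**
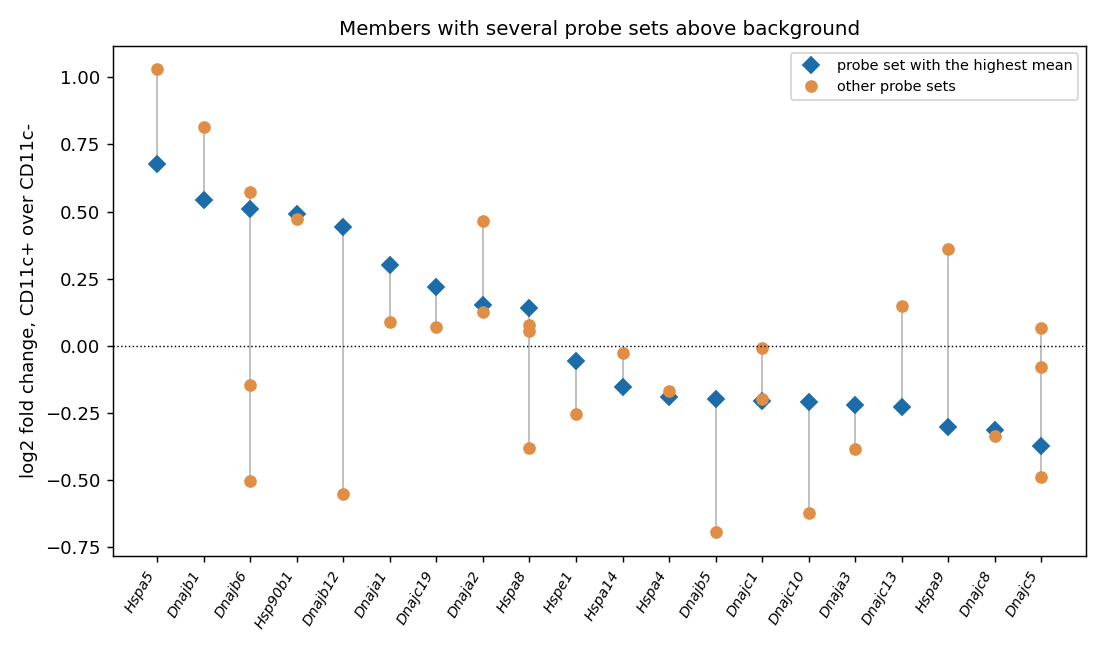
Log2 fold change of each probe set above background for the 20 members with several, with diamonds for the probe set with the highest mean and circles for the others. Both probe sets of Hspa5 lie above 0.6 and both of Hsp90b1 near 0.5, while those of Dnajb6 and Dnajb12 lie on both sides of zero.

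Grouped by role, 9 of the 12 genes listed as a heat-inducible core were measured, none of which passed the adjusted test. Of these, 8 had a log2 fold change above 0, 5 were higher in 3 of 3 mice (Hsph1, Dnajb1, Hsp90aa1, Hspb1 and Hspa8), and the median was 0.30, with medians of 0.55, 0.36 and 0.10 in mice A, C and D. Over all genes 33.9% were above 0 and 12.6% were higher in 3 of 3 mice, with a median of -0.09. Among all genes above background in at least 1 fraction, these shares were 42.4% and 21.2%. The list had 6 genes above background, while Hspa1b, Hspb1 and Dnajb4, which are among the 8, were above it in neither fraction. Hspa1b and Dnajb4 were each higher in only 1 of 3 mice. Hspa8, which is on the list, was described above as constitutive. The 10 ER members had a median of 0.14 and split evenly by sign, with Hspa5, Hsp90b1, Dnajb12, Dnajb9 and Dnajb14 above 0 and Dnajc3, Dnajc10, Dnajc1, Hspa13 and Dnajb11 below. The 7 mitochondrial members had a median of -0.14, 2 of them above 0 (Dnajc19 and Dnajc15).

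Genes that work with these chaperones were also read. Of 20 genes of ER folding and the unfolded protein response, none passed the adjusted test, and the median was 0.08. Log2 fold changes above 0 were found for 15 of the 20, and 6 (30%) were higher in 3 of 3 mice. Some of the 15 were near 0, such as Canx (0.04) and Calr (0.04), each higher in 1 of 3 mice. The share above 0 was 33.9% over all genes and 42.4% over those above background in at least 1 fraction. For genes higher in 3 of 3 mice, these shares were 12.6% and 21.2%. Xbp1, the transcription factor that the ER sensor IRE1 activates, had the lowest adjusted p of the 20, 0.082, with a log2 fold change of 1.00 and CD11c+ higher in 3 of 3 mice. Sdf2l1, a partner of BiP, had 0.86 (adjusted p = 0.108), with overlapping fractions and a CD11c- mean under the background level. P4hb, a protein disulfide isomerase, had 0.45. The lowest of the 20 was Pdia3, another disulfide isomerase, with a log2 difference of -0.50 (adjusted p = 0.398), lower in 3 of 3 mice at means under the background level. None of 24 other cochaperones and none of 14 chaperonin and prefoldin subunits passed, with medians of -0.09 and -0.09. Among the cochaperones, 9 were above 0 and 15 below. Bag5, a nucleotide exchange factor, had a log2 difference of -1.10 (adjusted p = 0.123) at means under the background level. Ppid had the highest, 1.12 (adjusted p = 0.586), with 3.11 in mouse D against 0.14 in A and 0.12 in C. Chordc1 (-0.47) and Ptges3 (-0.35) were above background in both fractions, with CD11c+ below without overlap.

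Immediate early genes, which sorting and handling of cells can induce along with heat shock genes, were read beside the members. Of 17 measured, 4 rose in CD11c+ cells at an adjusted p under 0.05 in limma and none fell, beside 1.40% and 0.222% of all genes. The median log2 fold change was 1.66. Those 4 were Atf3 (4.24, adjusted p = 0.016), Ier3 (4.92, adjusted p = 0.024), Fos (1.78, adjusted p = 0.040) and Fosb (2.85, adjusted p = 0.049). Of the 17, 14 were higher in 3 of 3 mice (82.4%, against 12.6% of all genes). The remaining 3, Klf2 (-0.69), Nfkbia (-0.68) and Klf6 (-0.19), were lower in 3 of 3 mice. In mice A, C and D the median of this list was 0.93, 1.51 and 1.98, beside the 0.55, 0.36 and 0.10 given for the heat-inducible core. The part of handling in the chaperone values was not tested.

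**Figure D4:**
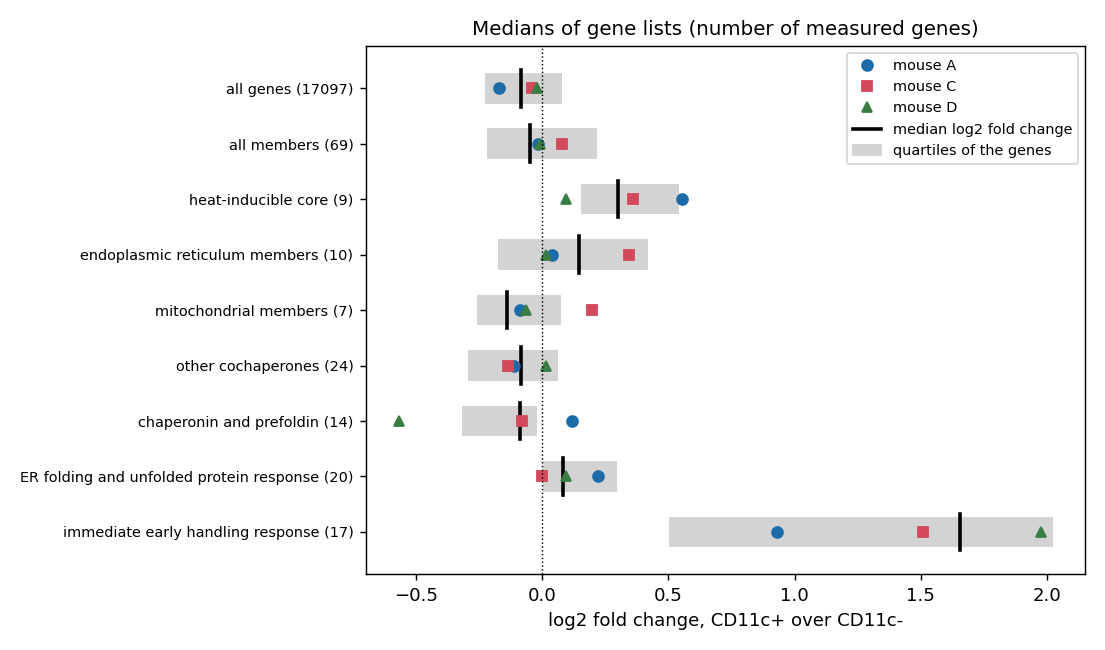
Median log2 fold change of each list (bars), quartiles of its genes (grey) and the median in each mouse (symbols), with the number of measured genes in parentheses. The member lists lie between -0.14 and 0.30, and the immediate early list at 1.66.

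The fractions also differed in markers of other cells. All 10 measured T cell markers were above background in both fractions, and their mean log2 value per array was 9.92 to 10.08 in CD11c- cells and 8.98 to 9.36 in CD11c+ cells, 2 markers having fallen at an adjusted p under 0.05. Markers of monocytes and macrophages rose for 11 of 16 (array means 5.11 to 5.30 against 7.83 to 8.23), those of basophils and mast cells for 9 of 11 (4.02 to 4.27 against 7.61 to 8.41), those of conventional dendritic cells for 3 of 9 (4.47 to 4.50 against 6.08 to 6.55) and those of NK cells for 4 of 8 with 1 fallen. Markers of B cells rose for 1 of 9, those of neutrophils for 1 of 9 and those of platelets and erythroid cells for 1 of 10, with 0 fallen. Over all genes, 1.40% rose and 0.222% fell at this threshold. The part of such cells in the values of Hspa5, Hsph1 and the other chaperones was not tested. In such bulk samples fewer cells of a type and less RNA per cell cannot be told apart.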

How the data were processed

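CD11c- and CD11c+ blood T cells of 3 mice gave 6 samples, each measured on 1 array. The deposited values are log2 signals that the authors obtained by RMA from intensities read with GeneAtlas software. The submitters' processing notes also name RMA and limma. Versions were not given in the sources used. RMA makes array distributions alike (medians 4.40 to 4.54), so a change of total RNA cannot be seen.

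limma 3.58.1 in R 4.3.3 was fitted to all 45141 probe sets with the mouse as a block, and p-values were adjusted over all of them by Benjamini-Hochberg. The pairs come from the labels, which assign both fractions to 1 mouse. Paired arrays deviated together at correlations of 0.122, 0.0758 and 0.109, against -0.086 to -0.0217 between mice. Deviations were taken from the mean of each fraction, so positive values within pairs bring negative ones between mice by construction. Each probe set had 2 residual degrees of freedom, and the number of arrays limits the precision. The step was tested on simulated data.

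The platform annotation gives 28898 probe sets 1 symbol, gives 551 several, and leaves 15692 unnamed here, and the symbols of all 69 members stand in RefSeq under the same gene ID. Background was set at the 95th percentile of 42 gene means, the genes being those of other tissues. No genome build is named for the arrays, so coordinates are given only for RefSeq promoter windows. Members and lists were chosen with earlier results of these data known. Genes named are the heat-inducible core, the Hsp90, Hspa and Hsf members, the 8 highest and 8 lowest members above background, and others where a count was small or a list was described. Alternatives were the block, variance model, filter, normalization, probe set choice, threshold and leaving out each mouse.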

Additional observations from a re-analysis of the deposited data

How the results depend on the processing

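No member passed an adjusted p of 0.05 under any alternative run, and with all settings as reported none passed 0.10. The lowest adjusted p over all of them was 0.0590, for Hspa5 with a random block for the mouse. With no replicate block the lowest was 0.0779, also Hspa5, and 0 members passed. With a gene's probe sets averaged, Hspa5 had 0.0595. Members higher at an unadjusted p under 0.05 numbered 7, and 9 under cyclic loess and 8 with arrays centred on the median. Members lower there numbered 3, and 1 with no replicate block, 1 with the random block, 1 under cyclic loess and 6 with probe sets averaged. Leaving out 1 mouse gave 5 higher in each case and 1 to 4 lower (4 without mouse A, 1 without C or D), and a median of -0.0519 to -0.0268. The median became 0.0339 under cyclic loess (all genes -0.00448). Of 324 values of single members under alternatives, 308 kept direction and side of the threshold and 16 turned sign. These were Hspe1 0.0315 and Hsf5 0.0593 under cyclic loess, Hsf5 0.00397 with arrays centred on the median, Hspa8 -0.0268 and Dnajb12 -0.0532 with probe sets averaged, and, over the fits that each left out 1 mouse, Hspa1b (-0.271 without mouse A to 1.12 without D), Hspe1 (-0.125 without C to 0.00844 without A), Hspa13 (-0.268 without C to 0.144 without A), Dnajb4 (-0.186 without C to 0.409 without A), Hspa12b (-0.165 without D and -0.0305 without C to 0.313 without A), Hspa4l (-0.503 without D to 0.149 without C), Hsf2 (-0.586 without D to 0.164 without C), Hsf5 (-0.0563 without A to 0.0163 without D), Hsf4 (-0.398 without C to 0.429 without D) and Hspa14 (-0.337 without A to 0.146 without D). The cause was not tested. Over all genes, 240 were called higher and 38 lower with 3 mice, and without mouse A none was called, without C 95 and 0, and without D 179 and 19 called.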
